A study of Homo sapiens with 6 samples.

Results

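CCL20, a CC chemokine also known as LARC and MIP-3α, was followed in HT-29 cells with and without 5-aza-2′-deoxycytidine (5-Aza), by HGU133 Plus2.0 arrays. It is 1 gene of the 19775 genes that could be given a probe set with a single gene symbol, and 1 probe set, 205476_at, of 54675 was annotated to it. The gene was chosen by its array signals in 5-Aza-treated and control cells, so its levels and their difference are described here without a test. The HT-29 line was derived from a human adenocarcinoma of the colon. In 1 group the cells were kept with 10 µM 5-Aza for 72 hours in medium without serum, and in the other they received only the solvent, water mixed with acetate. Each group has 3 arrays, all of total RNA from this 1 cell line, and whether they came from separate cultures is not given in the sources used here. P-values therefore measure only the spread between these arrays, which may be technical.

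CCL20 is a small secreted protein that attracts cells carrying the receptor CCR6, among them memory T cells, Th17 cells, B cells and immature dendritic cells. In the gut it is made by epithelial cells, above all those over lymphoid follicles, and its transcription is switched on through NF-κB when the cells sense cytokines or bacterial products. As an analog of cytidine, 5-Aza enters DNA and traps DNA methyltransferases, so that methylation is lost as cells divide. RNA from whole cultures does not tell more expressing cells from more RNA per cell.

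The gene lies on chromosome 2, at chr2:227813842-227817556 of GRCh38.p14, and RefSeq lists 2 transcripts for it. The 250 bases before its start site are shown for their short motifs and their CG dinucleotides, the sites of DNA methylation. Whether these bear on a response to 5-Aza or to NF-κB was not tested, and methylation was not measured on these arrays. The 250 bases are RefSeq sequence at chr2:227813592-227813841 on the plus strand, with a match to the NF-κB consensus and a TATA box in capitals.
CCL20: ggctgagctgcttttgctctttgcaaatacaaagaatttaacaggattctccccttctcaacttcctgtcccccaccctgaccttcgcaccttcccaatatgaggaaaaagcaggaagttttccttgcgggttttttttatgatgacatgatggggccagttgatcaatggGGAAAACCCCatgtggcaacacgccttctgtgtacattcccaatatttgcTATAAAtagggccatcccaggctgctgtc

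The promoter of CCL20 was poor in CG dinucleotides. Its 300 bases (250 before and 50 after the start site) held 3 CG dinucleotides, at 165, 123 and 58 bases before the start site, while the median of 35116 RefSeq promoters of that length was 14, and 24.5% of them had 3 or fewer. The NF-κB consensus matched at 1 place, on the opposite strand, with the match beginning 79 bases before the start site, and 5.91% of all promoters held such a match on either strand. The TATA box (TATAAA) began 29 bases before the start site, and 11.5% of all promoters held these letters. The AP-1 motif TGANTCA and the C/EBP motif TTNCNNAA, searched on both strands as the others were, were not found in this window. They were present in 7.71% and 36.8% of all promoters. A match describes letters and not a bound site.

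The same stretch of 30 bases is shown for those of CXCL1, CXCL2, CXCL3, CXCL5, CXCL6 and CXCL8 whose promoter held the consensus. These genes were singled out as inducible chemokines of colon epithelium, with earlier results of these data known. The promoters of CXCL10, CXCL11 and CCL22 held the consensus too and are not shown. Capitals mark the bases covered by matches. In the CXC genes shown a match on the printed strand overlaps 1 on the opposite strand, while CCL20 has only the latter.
CCL20, chr2:227813753-227813782, plus strand: tgatcaatggGGAAAACCCCatgtggcaac
CXCL1, chr4:73869305-73869334, plus strand: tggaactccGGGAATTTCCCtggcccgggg
CXCL2, chr4:74099253-74099282, minus strand: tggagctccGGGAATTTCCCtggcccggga
CXCL3, chr4:74038748-74038777, minus strand: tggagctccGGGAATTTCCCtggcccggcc
CXCL5, chr4:73998748-73998777, minus strand: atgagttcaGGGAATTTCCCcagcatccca
CXCL6, chr4:73836579-73836608, plus strand: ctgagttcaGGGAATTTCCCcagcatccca

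The matches began between 78 and 91 bases before the start site in these genes. The promoters of these CXC genes had more CG dinucleotides than that of CCL20, with 22 in CXCL1, 22 in CXCL2, 24 in CXCL3, 9 in CXCL5 and 8 in CXCL6. Those of CXCL9, CXCL10, CXCL11 and CXCL13 had from 0 to 3. The promoter of CXCL8 had 4 CG dinucleotides and no match to the consensus as searched. Of 30 other chemokine ligand genes with a promoter sequence, 8 held an NF-κB match and 13 a TATA box, and 17 had more CG dinucleotides than CCL20.

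The deposited values are linear signals, and the highest signal of 3 probe sets for a bacterial transcript (TrpnX), which human cells do not make, was between 22.6 and 42 on the arrays. This level served as background. The epithelial markers EPCAM, CDH1, KRT8, KRT18, KRT19, KRT20, VIL1 and LGALS4 were strong on all 6 arrays, while CDX1, a transcription factor of the intestine, was below the TrpnX level on every array. CDX2, its relative, and GPA33, a surface antigen of intestinal epithelium, were near that level, with signals of 10.4 to 91.6 and 14.5 to 100.3. CEACAM5, an antigen of colon carcinoma, was the only epithelial marker at an unadjusted p under 0.05, with 732.4 to 925.9 on the 5-Aza arrays and 400.8 to 469.4 on the control arrays (log2 difference 0.96, limma adjusted p = 0.319). Of 9 measured leukocyte markers, ITGAM alone was above the TrpnX level on all 6 arrays, and PTPRC, which defines leukocytes, had signals from 3.2 to 34.6. The summed signal of the leukocyte markers was 613.5 to 717.5 on 5-Aza arrays and 249 to 521 on control arrays, with HLA-DRA alone at an unadjusted p under 0.05, and that of 10 fibroblast and endothelial markers was 788 to 855 and 588 to 699, with 8 of 10 log2 differences above 0 and VWF alone at an unadjusted p under 0.05 (1.95, 24.5 to 72.2 against 7.7 to 20.4). Their part in the results was not tested. As a measure of RNA quality, the log2 ratio of the 3′ to the 5′ control signal of ACTB was 0.64 to 0.80 on 5-Aza arrays and 0.46 to 0.60 on control arrays. That of GAPDH was 0.14 to 0.23 and 0.10 to 0.16, so it overlapped between the groups. Whether RNA quality bears on the values below was not tested.

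CCL20 was among the strong signals on the 5-Aza arrays, near the middle of all genes on control replicates 1 and 3 and weak on control replicate 2. On the 5-Aza arrays its signal was 3106.8, 3176.4 and 3424.5 (3236 ± 167, SD, n = 3). On the control arrays it was 222.2, 35 and 244.8 (167 ± 115, SD, n = 3). The 5-Aza arrays lay close together and far above all control arrays, and control replicate 2 stood apart below the other controls. Its signal of 35 was 1.04 times the highest TrpnX signal of that array, where those of control replicates 1 and 3 were 9.34 and 5.83 times and those of the 5-Aza arrays 97.7 to 141 times. In control replicate 2, CCL20 was thus barely told apart from background.

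**Figure D1:**
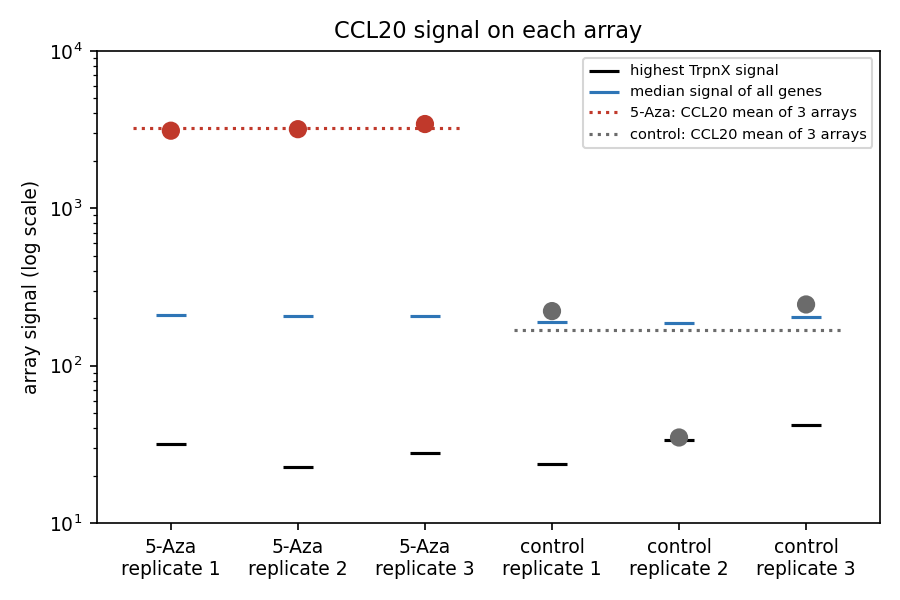
Signal of CCL20 (log scale) on each of the 3 5-Aza (red) and 3 control (grey) arrays, with dotted lines at the group means, black dashes at the highest TrpnX signal and blue dashes at the median signal of all genes on that array. The 5-Aza arrays lie between 3106.8 and 3424.5, and control replicate 2 (35) lies at the level of its TrpnX probe sets.

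The group means differed 19.3-fold. On the log2(signal + 1) scale the difference, 5-Aza minus control, was 4.69 (SE 0.79). Over the 9 pairs of a 5-Aza array and a control array, the ratio of signals ran from 12.7 to 97.8. The wide range came from the control side, since the SD of the log2 signal was 0.074 among the 5-Aza arrays and 1.56 among the control arrays. Without control replicate 2 the control mean was 233.5, the ratio of means 13.9 and the log2 difference 3.79. Without any other single array the log2 difference was between 4.65 and 5.17.

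The spread of CCL20 was compared with that of genes at a like level. Of 2586 genes whose mean control signal lay within 2-fold of that of CCL20, 99.3% had a smaller SD among the control arrays, and their median SD was 0.29 on the log2 scale. Of 3027 genes whose mean 5-Aza signal lay within 2-fold, 45.3% had a smaller SD among the 5-Aza arrays, with a median SD of 0.079. CCL20 was therefore as even as its peers in 5-Aza-treated cells and much more uneven than its peers in control cells. In control replicate 2 it was 2.70 lower on the log2 scale (a difference of -2.70) than the mean of the other controls, and only 12 of the 2586 genes had a more negative value, against a median of -0.048.

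The rank of CCL20 among the 19775 genes moved with its signal. Counted from the strongest signal, it was 1873, 1828 and 1672 on the 5-Aza arrays and 9580, 14057 and 9536 on the control arrays. In terms of shares, 90.5%, 90.8% and 91.5% of the genes had a lower signal than CCL20 on the 5-Aza arrays, and 51.6%, 28.8% and 51.8% on the control arrays. By the mean log2 signal of each group, CCL20 stood at rank 1794 in 5-Aza-treated and at rank 10624 in control cells (9566 without control replicate 2). Since probe sets bind their transcripts with different strength, a rank orders signals and not amounts of mRNA, and the shift of the same probe set between arrays is the comparable quantity.

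**Figure D2:**
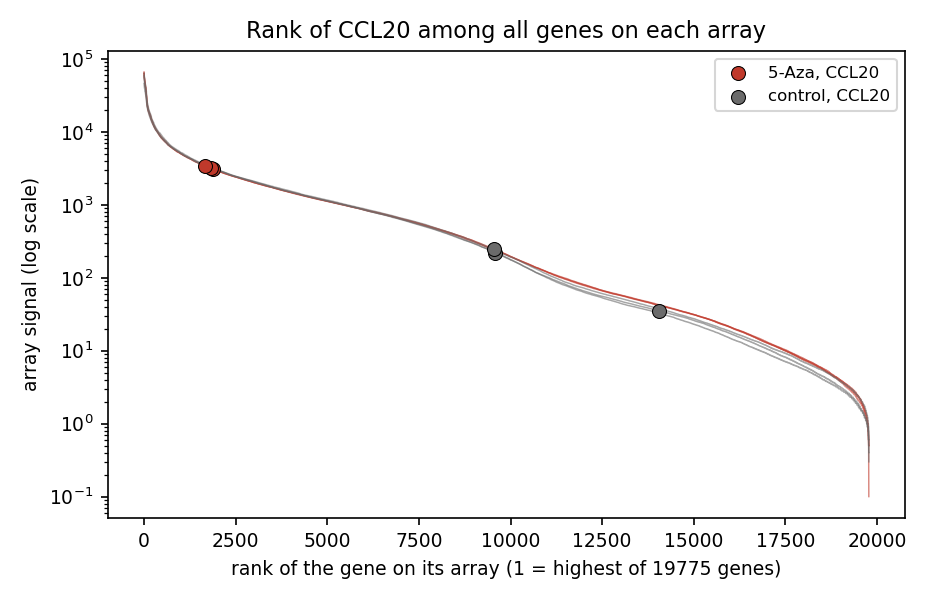
Signal (log scale) of 19775 genes on each array against their rank on it (lines, red 5-Aza, grey control), with CCL20 marked on each array. CCL20 lies between ranks 1672 and 1873 on the 5-Aza arrays, at 9580 and 9536 on control replicates 1 and 3 and at 14057 on control replicate 2.

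Genes as strong as CCL20 in 5-Aza-treated cells had far stronger control signals. In 1793 genes, CCL20 included, the mean 5-Aza signal was at least that of CCL20, and among the other 1792 the lowest mean control signal was 2144, that of RASEF. Conversely, among the 2586 genes with a like control signal, the highest mean 5-Aza signal was 1357, that of the antiprotease elafin (PI3), and the largest log2 difference was 3.37, that of CXCL1. PI3 (mean signal 158.5 in control and 1357 in 5-Aza-treated cells) and CXCL1 (96.0 and 991) thus also went from a low or middle to a high signal. The median log2 difference of these genes was 0.080. Among all genes, CCL20 had the second largest log2 difference after IGFBP1 (4.70), whose mean control signal of 11.4 was below the TrpnX level. With 16 in place of 1 added to the signals, which weakens differences that rest on background, CCL20 came first (4.47) and IGFBP1 second (3.51). CXCL1 (3.17) and PI3 (3.00) followed. On the linear scale the gain of CCL20 was 3069 signal units, at rank 55, behind genes with far stronger control signals. Among the single probe sets, CCL20 was at rank 3.

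CCR6, the receptor of CCL20, was at background in these cells, above the TrpnX level on 1 control array alone. Its signals were 27.9, 14.7 and 24.5 on the 5-Aza arrays and 36.1, 4.5 and 26.7 on the control arrays, with overlapping groups and a log2 difference of 0.34 (SE 0.78, limma adjusted p = 0.943). The beta-defensin DEFB1, an antimicrobial peptide that also binds CCR6, had signals from 8.5 to 22.9 on the 5-Aza arrays and from 5.8 to 21.4 on the control arrays. It was below the TrpnX level on every array. The other beta-defensins of the list (DEFB4A, DEFB103A and DEFB103B) had no probe set with a single symbol.

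For the remaining gene lists, limma was run over all 54613 probe sets. Each gene was read on its single-symbol probe set with the highest mean, and on a probe set with the suffix _x_at only where no other existed. At an adjusted p under 0.05, 0% of the 19775 genes were called higher and 0% lower (smallest adjusted p = 0.0903), so 0 genes of any list passed. At an unadjusted p under 0.05, 5.29% of all genes were higher and 1.87% lower, and for 9.91% every 5-Aza array lay above every control array while for 6.9% every 5-Aza array lay below. These shares are the background for the counts that follow, though the lists were chosen with earlier results of these data known. The median log2 difference of all genes was 0.038, with 54.9% of them above 0. Centring each array on its median would lower every log2 difference by 0.19 (a change of -0.19), and the median of all genes would be -0.15. Values given below after median centring are to be read against that median.

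Few other CC chemokine ligands were above background on every array, though 16 were above it on some arrays and 2 on none. Of the 19 others that were measured, CCL28, made by mucosal epithelium, was the only gene above the TrpnX level on all 6 arrays, with signals of 125.6, 191.5 and 102.4 on the 5-Aza arrays and of 106.2, 132.7 and 65.0 on the control arrays. Its groups overlapped (log2 difference 0.47, SE 0.37), and another of its probe sets ran the opposite way with separate groups (-0.57, SE 0.20). At an unadjusted p under 0.05, 1 gene was higher and 1 lower, and these were also the 2 genes whose groups did not overlap. CCL22, a ligand of CCR4, had 23.5 to 27.3 on the 5-Aza arrays and 9.6 to 15.7 on the control arrays (log2 difference 1.05, SE 0.23, limma adjusted p = 0.455). CCL18, a chemokine of dendritic cells and macrophages, had 4.8 to 6.6 and 30 to 37.9 (-2.29, SE 0.19, limma adjusted p = 0.110). The signals of both lay near the TrpnX level, and the other probe set of CCL18 gave -0.12. The median log2 difference of the 19 genes was 0.47, with 12 of them above 0.

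**Figure D3:**
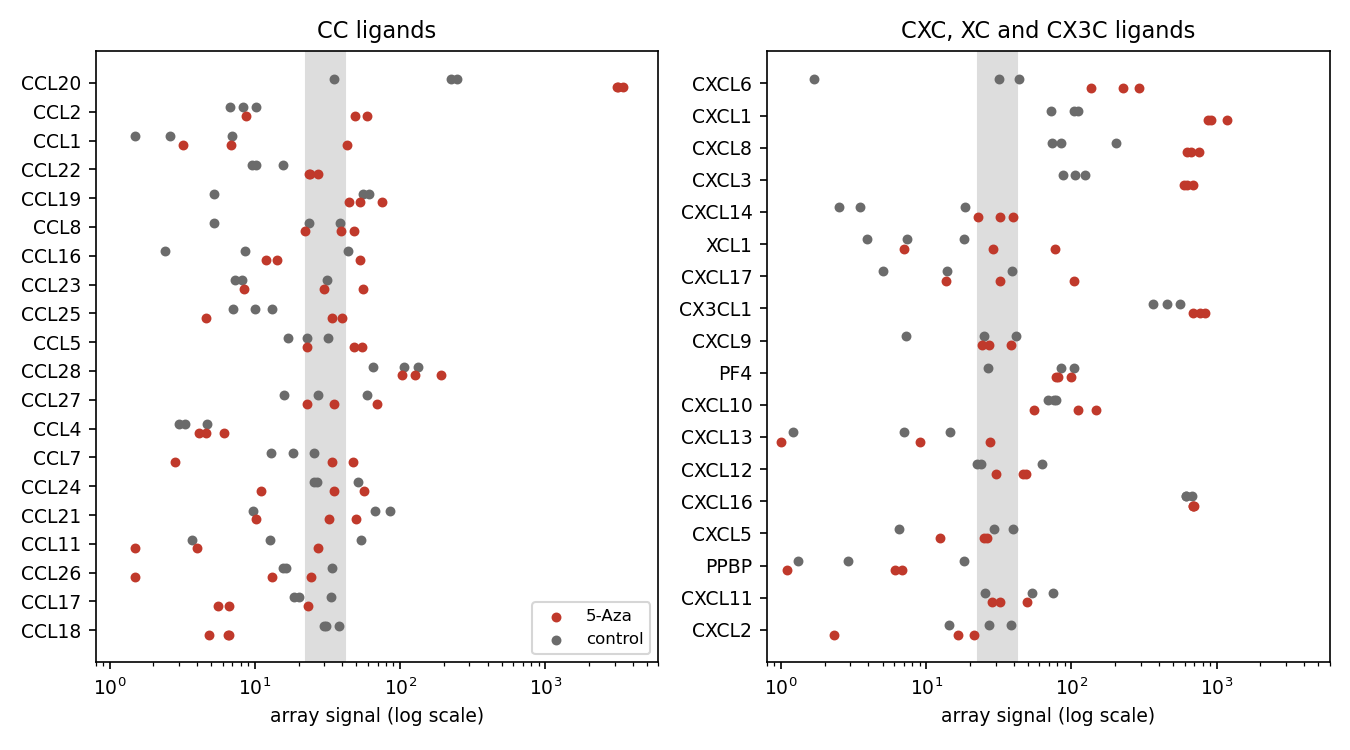
Signals (log scale) of CCL20 and 37 other chemokine ligand genes on the 3 5-Aza (red) and 3 control (grey) arrays, sorted by log2 difference within each panel, with the range of the highest TrpnX signals (22.6 to 42) shaded. The groups of CCL20 are far apart, and of the 19 other CC ligands CCL28 alone lies above the TrpnX level on all 6 arrays. Levels of different genes are not on a common scale.

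The CXC, XC and CX3C ligands held more genes with separate groups. Of 18 measured, 6 passed an unadjusted p of 0.05 upward and 0 downward, and 7 had every 5-Aza array above every control array, while 0 had every 5-Aza array below. Their median log2 difference was 0.50, with 15 above 0, and after median centring it was 0.31.

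CXCL1, which attracts neutrophils, had signals of 874.0, 914.4 and 1185.5 on the 5-Aza arrays and of 104.1, 72.2 and 111.7 on the control arrays (log2 difference 3.37, SE 0.24, limma adjusted p = 0.0903). CXCL3, a close relative, had 628.7, 596.2 and 691.9 against 124.1, 106.2 and 87.6 (2.59, SE 0.19, limma adjusted p = 0.0903). CXCL8, the neutrophil attractant interleukin-8, had 757.1, 663.6 and 622.7 against 202.5, 84.4 and 73.2 (2.64, SE 0.42, limma adjusted p = 0.297). The groups of all these genes were far apart, and none of them passed over all probe sets.

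CXCL6 had 135.2, 290.3 and 227.5 on the 5-Aza arrays and 43.2, 1.7 and 31.8 on the control arrays, so its log2 difference of 3.73 (SE 1.15, limma adjusted p = 0.604) fell to 2.45 without control replicate 2, the array on which CCL20 was lowest too. CXCL2 (-1.23, SE 0.83) and CXCL5 (0.020, SE 0.72) were at background with the probe sets used here. Probe sets with the suffix _x_at, which can bind related transcripts as well, gave 2.33 for CXCL2 and 5.37 for CXCL5. Another probe set of CXCL5 without that suffix had 62.6, 40.4 and 54.5 on the 5-Aza arrays and 3.6, 1.6 and 43.6 on the control arrays (2.70, SE 1.10, limma adjusted p = 0.699), with overlapping groups. The _x_at probe set of CXCL8 had 2480 to 3320 and 326.7 to 599.9 (2.65, SE 0.28, limma adjusted p = 0.160). CX3CL1, a chemokine anchored in the membrane, had a log2 difference of 0.75 (SE 0.21, limma adjusted p = 0.579) and CXCL14 one of 2.23 with signals of 2.5 to 39.5. Their other probe sets had overlapping groups, with 0.46 for CX3CL1 and 1.42 and 0.89 for CXCL14. CXCL16 (0.12), whose 5-Aza arrays lay just above its control arrays, turns negative with median centring. Compared with these values, the log2 difference of CCL20 (4.69) was the largest in the family on the probe sets used.

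The chemokine receptors apart from CCR6 were mostly at background, and 2 of 20 measured genes were above the TrpnX level on all 6 arrays. CXCR4, the receptor of CXCL12, was strong in both groups (9202 to 11870) with a log2 difference of 0.17, and CCRL2, an atypical receptor, had 222.5 to 254.3 and 156.9 to 217.3 (0.37, SE 0.18). The atypical receptors ACKR4 and ACKR2, which take up chemokines without the usual signaling, had log2 differences of 1.05 (SE 0.28) and 1.02 (SE 0.31). These were the 2 receptors at an unadjusted p under 0.05, and their limma adjusted p-values were 0.548 and 0.603. With CCRL2 they were the 3 receptors with every 5-Aza array above every control array. The median of the list was 0.15, which was -0.032 after median centring.

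Of the cytokines that induce CCL20 in epithelium, 3 of 17 measured passed an unadjusted p of 0.05 upward and 0 downward, and the same 3 had separate groups. IL36G, an epithelial cytokine of the interleukin-1 family, had 36.6, 36.3 and 67.1 on the 5-Aza arrays and 1.7, 7.4 and 3.7 on the control arrays (log2 difference 3.27, SE 0.49, limma adjusted p = 0.280), with the control arrays at background. TNF had 75.7, 75.6 and 73.1 against 31.1, 21.9 and 2.3 (2.50, SE 0.89, limma adjusted p = 0.653). It was above the TrpnX level on 1 control array alone. With 16 added, the log2 differences of IL36G and TNF were 1.60 and 1.51. IL1B had 80.0, 85.5 and 110.6 against 46.0, 58.6 and 56.7 (0.76, SE 0.20, limma adjusted p = 0.546). IL17A, IL17F and IL22, cytokines of lymphocytes, had overlapping groups and reached at most 45.3 on any array. The median log2 difference of the list was 0.27, with 9 of 17 above 0, and it was 0.087 after median centring.

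The receptors and adaptors through which such cytokines act were mostly above background and alike between the groups. Receptors of the interleukin-1 family were among the weak ones, with signals of 26.7 to 64.0 for IL1R1 and 2.7 to 66.6 for IL1RL2. Of 29 measured, 19 were above the TrpnX level on all 6 arrays, 2 passed an unadjusted p of 0.05 upward and 0 downward, and the median log2 difference was -0.013. IRAK2, a kinase in the signaling of interleukin-1 and Toll-like receptors, had 574.4, 553.0 and 557.2 on the 5-Aza arrays and 311.9, 286.2 and 441.6 on the control arrays (0.72, SE 0.21, limma adjusted p = 0.583). TRAF6, the ubiquitin ligase of the same branch, had a log2 difference of 0.49 (SE 0.18). TLR3, a sensor of double-stranded RNA, also had every 5-Aza array above every control array (0.46, SE 0.30), and RIPK2, which signals for NOD receptors, every 5-Aza array below (-0.21, SE 0.14). The interleukin-17 receptor subunits IL17RA (-0.15) and IL17RC (0.12), the TNF receptor TNFRSF1A (-0.25) and the adaptor MYD88 (-0.12) had overlapping groups.

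The subunits, kinases and inhibitors of NF-κB were all well above background. Of 16 measured, 4 passed an unadjusted p of 0.05 upward and 0 downward, and 7 had every 5-Aza array above every control array. The 4 were RELB, NFKBIA, NFKBIE and NFKB2. The median log2 difference was 0.22, and it was 0.032 after median centring, against 0.038 and -0.15 for all genes. RELB, a subunit of the noncanonical pathway, had 701.8, 642.4 and 736.2 on the 5-Aza arrays and 308.4, 251.8 and 448.2 on the control arrays (log2 difference 1.08, SE 0.25, limma adjusted p = 0.485). The inhibitor NFKBIA, itself a target of NF-κB, had 4275.6, 3566.6 and 3938.6 against 2476.3, 1709.1 and 2574.9 (0.82, SE 0.22, limma adjusted p = 0.549). TNFAIP3, which ends NF-κB signaling, had 0.91 (SE 0.40, 0.55 without control replicate 2) and the inhibitor NFKBIE 0.62 (SE 0.13). NFKBIZ, a nuclear cofactor of NF-κB at inflammatory genes, was strong in both groups (4431 to 5732) and its log2 difference was 0.007.

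Control replicate 2, the control array with the lowest CCL20 signal, was also the lowest control array for 10 of these 16 genes, among them NFKBIA, TNFAIP3 and RELB, where this was so for 36.8% of all genes. For the CXC, XC and CX3C ligands it was 10 of 18, for the other CC ligands 9 of 19 and for the upstream receptors and adaptors 8 of 29. Lists of other kinds had shares as high, with 5 of 9 regulators of mRNA decay, 5 of 9 leukocyte markers and 7 of 15 other transcription factors. For the chemokine receptors it was 6 of 20 and for the epithelial markers 1 of 12. On the log2 scale, control replicate 2 differed from the mean of the other controls by -0.56 in NFKBIA, -1.10 in TNFAIP3 and -0.57 in CXCL1, but by 0.026 in CXCL3 and 1.15 in TNF. This is a single array, so the values are given as a description.

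Other transcription factors that act at chemokine promoters had strong signals and small differences. Of 15 measured, 1 passed an unadjusted p of 0.05 upward and 1 downward, 3 had every 5-Aza array above and 2 every 5-Aza array below every control array, and the median log2 difference was -0.15. FOSL1, an AP-1 subunit, had a log2 difference of 0.40 (SE 0.15), and JUNB, another subunit, of -0.41 (SE 0.15). CEBPD and JUND had 0.26 and 0.13, and JUND turns negative after median centring. JUNB and SP1 (-0.083) were those with every 5-Aza array below. Among 9 regulators of cytokine mRNA decay, ZFP36L1, which binds AU-rich elements, was the only gene with separate groups (0.28, SE 0.15), and 0 were higher or lower at an unadjusted p under 0.05. ZFP36, its relative, had -0.19 with overlapping groups.

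**Figure D4:**
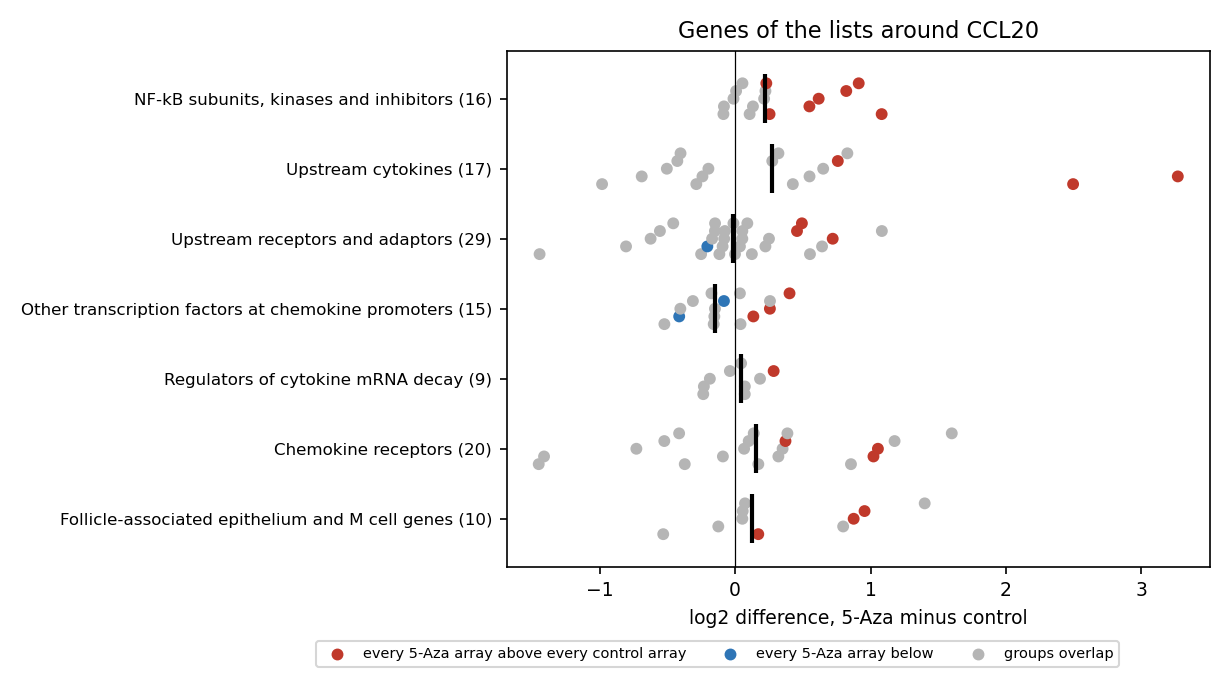
Log2 difference (5-Aza minus control, n = 3 arrays each) of the measured genes of 7 lists around CCL20, with their number in brackets and black bars at the list medians. Red points are genes with every 5-Aza array above every control array (7 of 16 in the NF-κB list), blue points those with every 5-Aza array below, and grey points those with overlapping groups. Points are spread vertically for visibility alone.

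CCL20 is also known as a product of the follicle-associated epithelium, so genes of this epithelium and its M cells were read. Of 10 measured, 1 passed an unadjusted p of 0.05 upward and 0 downward. This was TNFAIP2, an M cell gene and NF-κB target, with 797.7, 721.5 and 979.8 on the 5-Aza arrays and 303.4, 559.7 and 453.5 on the control arrays (log2 difference 0.96, SE 0.28, limma adjusted p = 0.589). TNFRSF11B, the decoy receptor osteoprotegerin, had 747.3 to 800.0 on the 5-Aza arrays and 698.9, 179.3 and 598.5 on the control arrays (0.88, SE 0.55), again with control replicate 2 lowest and a difference of 0.26 without it. ANXA5 (0.17) had separate groups as well but turns negative after median centring. SPIB, the transcription factor of M cells, and GP2, a receptor on their surface, had overlapping groups and signals of at most 57.0. The median of the list was 0.12, and -0.065 after median centring.

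Few neighbors of CCL20 on chromosome 2 could be read. Of the 10 annotated genes on each side, 3 had a probe set with a single symbol, and the groups of all 3 overlapped. SLC19A3, a thiamine transporter whose gene ends 95.8 kb before CCL20, had 202.0, 213.2 and 180.0 on the 5-Aza arrays and 209.6, 165.9 and 186.0 on the control arrays (log2 difference 0.087, SE 0.17, limma adjusted p = 0.930). DAW1, 54.1 kb on the other side, had 33.9, 28.1 and 7.3 against 5.8, 8.4 and 3.1 (1.67, SE 0.65, limma adjusted p = 0.683), and passed an unadjusted p of 0.05. That call was lost without any array but 5-Aza replicate 3. The control signals of DAW1 were at background. SPHKAP, 162 kb away, was at background on nearly all arrays (-0.17, SE 1.06).

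The genes whose pattern over the 6 arrays was most like that of CCL20 were sought among 9886 other genes. These had a mean log2 signal over all 6 arrays above the median, so genes weak in control cells could pass through their 5-Aza signals. Of those named next, CXCL1, PI3, IL32, CXCL8 and CXCL3 had mean control signals from 96.0 to 158.5. The median signal of all genes on the control arrays was 186.7 to 204.3. Likeness was first measured by the root mean square distance between log2 deviations from the gene's own mean. Of the genes compared, CXCL1 was nearest (0.97), followed by PI3 (1.10), IL32 (1.32), CXCL8 (1.34), CXCL3 (1.40), LAPTM5 (1.61), PTGS2 (1.62) and CST1 (1.78). The median distance of all genes compared was 2.52. The correlations of these 8 genes with CCL20 were from 0.87 to 0.97. CXCL6 was too weak for the filter and was not compared, so a nearer gene among the weaker ones would not be seen. Its log2 difference was 3.73, and on control replicate 2 it differed by -3.82 from the mean of the other controls. The 6 arrays hold 2 groups, so the distances reflect the difference between groups above all, and they are given as a description.

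Several of these genes encode secreted proteins, the chemokines and PI3 among them, and the share of such genes among all genes was not counted. PI3 had 1221.6, 1301.7 and 1548.6 on the 5-Aza arrays and 141.4, 127.3 and 206.9 on the control arrays (log2 difference 3.11, SE 0.24, limma adjusted p = 0.0933). IL32, a proinflammatory cytokine, had 655.8, 421.2 and 463.2 against 198.5, 34.8 and 230.9 (2.09, SE 0.78, limma adjusted p = 0.669). PTGS2, the inducible cyclooxygenase, had 702.7, 685.8 and 703.3 against 469.9, 88.4 and 379.2 (1.47, SE 0.66, limma adjusted p = 0.727). IL32, PTGS2 and LAPTM5, a lysosomal protein of blood cells, resembled CCL20 in their low value on control replicate 2. Without that array their log2 differences were 1.23, 0.72 and 0.65.

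**Figure D5:**
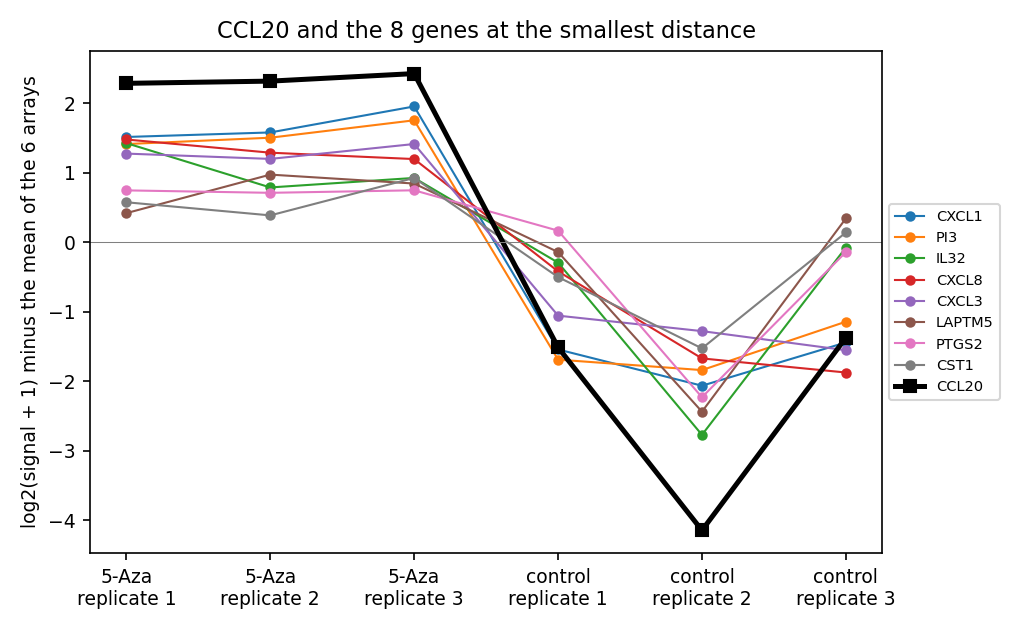
Log2(signal + 1) minus the mean of the 6 arrays for CCL20 (black squares) and the 8 genes at the smallest distance from it among the genes compared. The lines join the values of a gene and imply no order of the arrays. All 9 genes lie above their mean on the 5-Aza arrays, and CCL20 and 6 of the others are lowest on control replicate 2.

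By Pearson correlation, which ignores the size of the difference, other genes came first. RAB3B (0.997), STXBP3 (0.993), ATE1 (0.991), ZNF468 (0.991), FN1 (0.991), BCAP29 (0.987), CD83 (0.986) and SLK (0.986) led, and 265 genes had a correlation above 0.9. RAB3B and STXBP3 take part in vesicle secretion and FN1 encodes fibronectin. CD83, a surface protein of mature dendritic cells and an NF-κB target, had 379.2, 367.9 and 361.6 on the 5-Aza arrays and 230.2, 199.5 and 257.6 on the control arrays (log2 difference 0.69). The log2 differences of these 8 genes were between 0.27 and 1.29, all with separate groups, and none was on the list by distance. Of 3 NF-κB genes also read, NFKBIA had a correlation of 0.984, with 8 genes higher. RELB had 0.965, with 40 genes higher, and TNFAIP3 0.880, with 356 genes higher.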

How the data were processed

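Total RNA of HT-29 cells on HGU133 Plus2.0 microarrays (3 arrays of each group) was analysed. The deposited table holds linear intensity values, made by the authors with the affy package per the labels; version, background correction and summarization are not given in the sources used here. Without the lowest and highest 2%, each array had a mean of 500.

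The members and gene lists were chosen with earlier results of these data known. By the platform annotation, 41097 of 54675 probe sets have 1 symbol, 1801 several and 11777 none. Each gene was read on its single-symbol probe set of highest mean, with _x_at probe sets only where no other existed. Without 62 control probe sets, log2(signal + 1) was compared with limma 3.58.1 in R 4.3.3 (group only, two-sided, Benjamini-Hochberg over 54613 probe sets), tested on simulated data. The study used SAM. The number of arrays limits the precision. Log2 signals of any pair of arrays correlated at 0.926 to 0.934, so none was a duplicate.

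Named were CCR6 and DEFB1, up to 4 genes of each list with the largest difference and separate groups, CXCL1, CXCL2, CXCL3, CXCL5, CXCL6 and CXCL8, the nearest measured neighbors, the 8 nearest genes by each measure and markers for or against the label. CCL28, CXCL9, CXCL10, CXCL11, CXCL13, CX3CL1, CXCL14, CXCL16, CXCR4, IL17A, IL17F, IL22, IL1R1, IL1RL2, IL17RA, IL17RC, TNFRSF1A, MYD88, NFKB2, NFKBIZ, SP1, ZFP36, SPIB, GP2, SPHKAP, HLA-DRA, VWF, RASEF and IGFBP1 were named after their values were seen. Alternatives were 16 added, quantile normalization, median centring, trend and robust variance, a filter at the median signal, a replicate block, other probe set rules and leaving out each array.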

Additional observations from a re-analysis of the deposited data

How the results depend on the processing

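The log2 difference of CCL20 (4.69) was 4.47 with 16 added, 4.64 with quantile normalization, 4.50 with median centring, 4.27 from the ratio of means and 3.79 to 5.17 without 1 array. With the replicate block it was 4.69. Deviations of same-numbered arrays from their group means correlated at -0.041, -0.039 and 0.075. With 3 arrays per group, these values cannot tell whether same-numbered arrays were handled together, which the sources used here do not give. The rank of CCL20 in 5-Aza-treated cells was 2825 among all probe sets and 832 when the probe sets of each gene were averaged, and in control cells 22866 among all probe sets. Over the whole table, trend and robust variance called 8 genes higher and 1 lower after adjustment, and the filter at the median signal called 4 higher. At an unadjusted p of 0.05, median centring gave 585 higher and 1323 lower, and trend and robust variance 801 lower. Among chemokine ligands, trend and robust variance called 3 higher after adjustment (CXCL1, CXCL3 and CXCL8) and the filter 2. Without adjustment the filter gave 4 higher and 0 lower, quantile normalization 2 lower, and leaving out 1 array 1 to 2 lower (2 without 5-Aza replicate 1). Of the NF-κB and upstream genes, 5 (without 5-Aza replicate 1) to 12 (without control replicate 3) were higher and 0 to 1 lower when 1 array was left out, 1 was lower with median centring and 1 with the replicate block. Of the flanking genes, 0 were higher with quantile normalization, median centring, trend and robust variance or the filter, and 0 to 1 without 1 array. The causes were not tested. Signals near background limit what can be read.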
